A study of Mus musculus with 4 samples.

Results

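The semaphorin system of the mouse tracheoesophageal anlage was compared between its dorsal and ventral parts, with the ligand genes set beside their receptor genes. Members were the probe sets whose only gene symbol in the platform annotation was that of a semaphorin of classes 3 to 7, a plexin or a neuropilin, and they numbered 78 of the 45101 probe sets on the array. They covered 31 of the 18194 named genes, of which 20 encode semaphorins, 9 plexins and 2 neuropilins. The samples came from BALB/c mouse embryos at around E9.75, for which the labels name no mutation or treatment, when the foregut is a single tube with a ventral swelling that will form the lungs. The parts were separated by hand under a microscope, so each sample holds epithelium and mesenchyme with whatever vessels, nerves and neighbouring tissue stayed attached, and 2 Affymetrix arrays were hybridised per part, called biological replicates in the labels. The sources used here do not say how many embryos or litters went into a sample, so p-values reflect no more than how far these 4 arrays spread. In such samples, fewer cells of a type and less RNA per cell cannot be told apart.

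Semaphorins are guidance proteins that repel or attract growing axons, migrating neural crest cells, endothelial cells and myocardial precursors. Class 3 semaphorins are secreted and mostly bind a neuropilin, which has little signalling activity of its own and forms a complex with a plexin A or plexin D. Semaphorins of classes 4 to 6 span the membrane, *Sema7a* is anchored to it by a lipid, and these mostly bind plexins directly. Plexins then act on small GTPases and on the cytoskeleton. In the chest and gut the system is known for the paths of cardiac neural crest and enteric nerves, for the patterning of vessels and for branching of the lung.

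Each gene is represented by the probe set whose mean over all 4 arrays was highest. Values are in log2 units of RMA, a method that corrects background, normalises the arrays and gives a value per probe set. The deposited arrays still differed in spread, as given below. A difference is the dorsal mean minus the ventral mean on this scale, tested with limma over 13139 genes whose value exceeded its array's 40th percentile on 2 or more arrays, with a Benjamini-Hochberg adjusted p under 0.05 as the threshold. By this rule 29 member genes lay above the percentile on all 4 arrays and *Sema3g* on 3. *Sema3e* lay below it on all 4, at 4.23 to 4.45 with its highest of 4 probe sets, and was not tested. A value is never compared between genes, since probe sets differ in how strongly they bind.

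Of the 30 tested members, 8 passed the threshold (26.7%), 4 with higher values dorsally and 4 ventrally. Over all tested genes 8.88% passed, 4.79% with higher values dorsally and 4.09% ventrally. The median difference was 0.089 over the members and 0.074 over all tested genes. Of the 19 tested ligand genes, 2 were higher dorsally and 3 ventrally, and of the 11 receptor genes 2 were higher dorsally and 1 ventrally. All 5 of these ligand genes belong to class 3, the secreted semaphorins, where they make up 5 of 6 tested genes. None of the 13 tested genes of classes 4 to 7 passed with limma, nor with a trended or a robust variance, and 3 of them had an unadjusted p under 0.05. At E9.75 the secreted ligands were thus divided between the parts, with *Sema3a*, *Sema3c* and *Sema3d* higher ventrally and *Sema3b* and *Sema3g* higher dorsally, while among the receptor genes *Plxna2* and *Nrp1* were higher dorsally and *Plxnc1* ventrally.

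**Figure D1:**
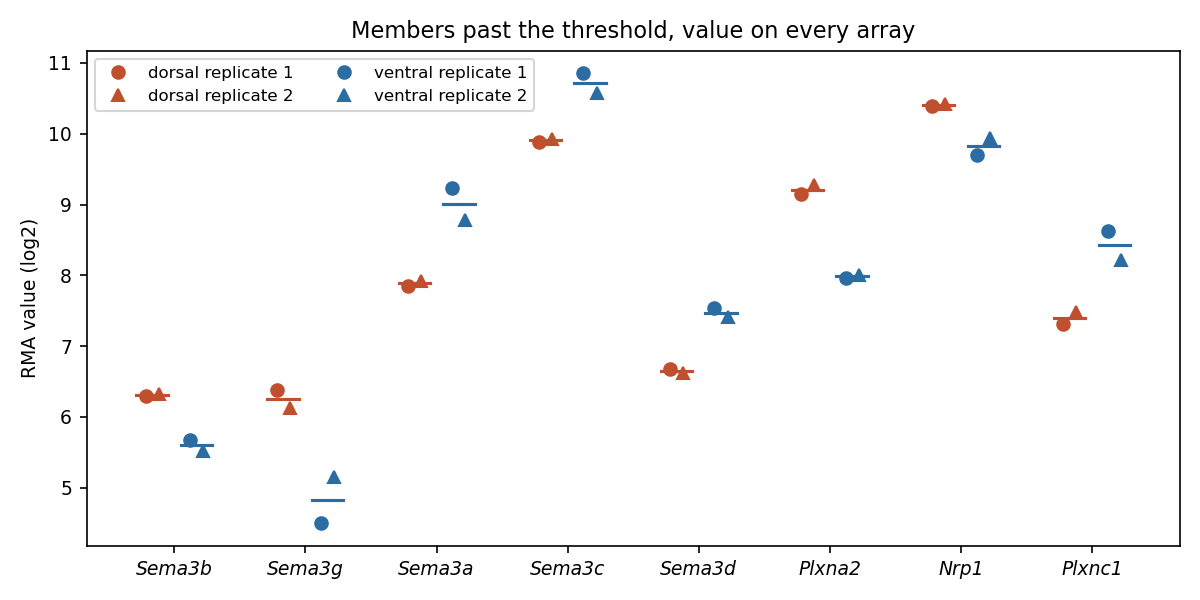
RMA values (log2, vertical axis) of the 8 semaphorin, plexin and neuropilin genes that passed the threshold, each array drawn as a point (circles for replicate 1, triangles for replicate 2) and each part's mean as a short line. For each gene the arrays of one part lie apart from those of the other. These genes were chosen by the test on the same values. The parts also lay apart for members that did not pass, such as *Sema4c* and *Sema6d*. The margin was widest for *Plxna2* and *Sema3g* on the dorsal side and for *Sema3a* on the ventral side.

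*Sema3a*, which encodes the prototype axon repellent of the family, had values of 7.86 and 7.92 dorsally against 9.23 and 8.79 ventrally. Both ventral values lay above both dorsal ones. The log2 difference was -1.12 (standard error 0.18, limma's adjusted p = 0.000123, with 2 arrays in each part here and throughout), or 2.18-fold higher ventrally. A second probe set, at 4.50 and 4.45 dorsally against 6.33 and 5.79 ventrally, gave -1.58. Both its dorsal values lay below the 40th percentile of their arrays, so it was tested through its ventral arrays alone. The third lay below the filter and had the same sign (-0.79). *Sema3a* passed in each of 15 other analyses, among them those without any 1 of the 4 arrays, with differences from -1.35 to -0.90.

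*Sema3c*, whose product attracts cardiac neural crest cells towards the outflow tract, had values of 9.89 and 9.93 dorsally against 10.85 and 10.58 ventrally. The difference was -0.81 (standard error 0.17, adjusted p = 0.00266 from limma). Its second probe set differed by -0.47 and did not pass. *Sema3d*, which encodes a ligand known from endothelial and crest cell guidance, had values of 6.68 and 6.62 dorsally against 7.53 and 7.41 ventrally. The difference was -0.82 (standard error 0.17, limma's adjusted p = 0.00170), and its second probe set gave -0.34 and did not pass. The 2 genes were 1.75-fold and 1.77-fold higher ventrally. Leaving out a dorsal array ended both calls, at -0.79 and -0.83 for *Sema3c* and at -0.85 and -0.79 for *Sema3d* without dorsal replicate 1 and 2, and *Sema3c* did not pass with the mean of its probe sets (-0.64). Across the alternatives, adjusted p-values lay between 8.83e-05 and 0.168 for *Sema3c* and between 6.95e-05 and 0.159 for *Sema3d*.

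On the opposite side, *Sema3g*, known from endothelial cells, had the largest difference of any member, with values of 6.38 and 6.12 dorsally against 4.50 and 5.15 ventrally. The ventral arrays differed from each other by 0.66, and ventral replicate 1 lay below the 40th percentile of its array. The difference was 1.42 (standard error 0.20, limma's adjusted p = 2.12e-05), or 1.33 when that value was raised to the percentile, and was 1.88 between the replicates numbered 1 and 0.97 between those numbered 2. It passed in all 14 alternatives in which it was tested, but it rests on a single probe set. *Sema3b*, whose product acts mainly through neuropilin-2, had values of 6.30 and 6.32 dorsally against 5.67 and 5.52 ventrally. The difference was 0.71 (standard error 0.17, limma's adjusted p = 0.00653), and it came from 1 of its 3 probe sets, and the next gave 5.49 and 5.34 dorsally against 5.42 and 5.41 ventrally, with no difference. With the mean of the probe sets it was 0.33 and did not pass, and the call was also lost on leaving out dorsal replicate 1 (0.73) or 2 (0.70), with adjusted p from 0.00102 to 0.308 over the alternatives.

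The remaining class 3 gene, *Sema3f*, encodes a repellent of neural crest that binds neuropilin-2. Its values were 12.12 and 11.98 dorsally against 12.05 and 12.08 ventrally, and these overlapped. The difference was -0.018, with a 95% interval from -0.37 to 0.33. This probe set is of the kind that may also bind other transcripts (suffix _x_at), and the other probe sets of *Sema3f* gave 0.24 and 0.46 and did not pass either. The 4 probe sets of *Sema3e*, a ligand that binds plexin-D1 without a neuropilin, all lay below the 40th percentile of every array.

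The class 3 genes with higher ventral values share a chromosome, though only *Sema3d* and *Sema3a* are direct neighbours. In the RefSeq annotation of GRCm38.p6, *Sema3d* and *Sema3a* lie on chromosome 5 with no protein-coding gene between them, *Sema3e* follows after 3 genes and *Sema3c* after 15 more. Between *Sema3d* and *Sema3c*, only 4 of the 18 protein-coding genes outside the family were tested, and of these *Cacna2d1*, a calcium channel subunit, was higher dorsally (0.69, adjusted p = 0.0202 from limma) and *Pclo*, *Hgf* and *Speer4f1* did not pass. *Sema3b* and *Sema3f* lie on chromosome 9 with 3 genes between them, where *Sema3b* was higher dorsally and *Sema3f* did not pass, and *Sema3g* lies on chromosome 14.

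The sequences before the start sites of these ligand genes are shown because the genes with higher ventral values can be set beside a dorsal one. They are the 250 bases that precede the annotated start in RefSeq (GRCm38.p6), written 5′ to 3′ on the gene's strand in lower case. Capitals mark matches on either strand to the TATA box (TATAAA), the GC box (GGGCGG), a forkhead site (TGTTTAC), a T-box site (GGTGTGA), a TCF/LEF site (CTTTGAT) and an E-box (CAGCTG), and no marked matches overlap. Such a match is a description of the letters only.
Sema3a (chr5:13396534-13396783, strand +): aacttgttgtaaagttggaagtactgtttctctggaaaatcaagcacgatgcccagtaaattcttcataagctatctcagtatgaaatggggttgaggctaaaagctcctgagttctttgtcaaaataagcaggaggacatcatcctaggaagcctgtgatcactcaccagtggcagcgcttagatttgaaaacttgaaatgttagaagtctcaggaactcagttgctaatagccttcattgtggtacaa
Sema3c (chr5:17574566-17574815, strand +): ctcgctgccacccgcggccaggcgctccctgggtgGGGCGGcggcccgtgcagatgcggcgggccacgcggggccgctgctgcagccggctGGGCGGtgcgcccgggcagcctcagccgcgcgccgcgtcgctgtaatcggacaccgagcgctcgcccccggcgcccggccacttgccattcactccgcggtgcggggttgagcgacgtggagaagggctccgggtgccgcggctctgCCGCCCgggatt
Sema3d (chr5:12382916-12383165, strand +): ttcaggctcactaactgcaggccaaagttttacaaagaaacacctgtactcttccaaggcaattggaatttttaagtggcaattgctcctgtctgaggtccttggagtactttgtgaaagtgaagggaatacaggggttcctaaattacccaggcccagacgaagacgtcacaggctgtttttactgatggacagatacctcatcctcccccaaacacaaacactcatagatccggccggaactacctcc
Sema3g (chr14:31217623-31217872, strand +): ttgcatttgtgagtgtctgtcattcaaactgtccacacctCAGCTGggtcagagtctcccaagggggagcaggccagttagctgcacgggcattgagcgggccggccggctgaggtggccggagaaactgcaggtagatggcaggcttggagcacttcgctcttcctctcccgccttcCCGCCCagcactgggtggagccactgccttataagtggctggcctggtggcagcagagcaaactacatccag

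These stretches differed in composition. That of *Sema3c* had a GC content of 78.4% with 39 CpG pairs, against a median of 52.4% and 6 over the 32851 start sites in the table, whereas *Sema3a* had 40.8% with 2 and *Sema3d* 46.8% with 4. *Sema3g* had 60.4% with 8. The GC box occurred 3 times before *Sema3c* and once before *Sema3g*, and 32.7% of all start sites had at least 1. The E-box before *Sema3g* is a motif found at 13% of them. *Sema3a* and *Sema3d* held none of the motifs, which says only that these letters are not in this window. RefSeq gives more than 1 start for some members, and 26 of the 31 genes had an entry in the table.

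Among the membrane-bound ligands, none of which passed, the differences ran from -0.25 to 0.46. *Sema6d*, whose product acts in heart chamber growth, had the highest, with 8.99 and 9.03 dorsally against 8.77 and 8.32 ventrally. Its dorsal arrays lay above its ventral ones, by 0.46 (95% interval 0.083 to 0.83, adjusted p = 0.146 from limma). *Sema5a*, a ligand with thrombospondin repeats, had 5.95 and 6.11 dorsally against 5.81 and 5.35 ventrally, a difference of 0.45 (95% interval 0.070 to 0.83, adjusted p = 0.163). *Sema7a*, which binds plexin-C1 and integrins, differed by 0.38 (95% interval 0.00054 to 0.76, adjusted p = 0.263), with values of 6.07 and 5.80 against 5.35 and 5.75. These intervals leave out 0 before adjustment, and the adjusted p-values do not show that the genes were alike in the parts. *Sema4d*, the ligand of plexin-B1, differed by 0.35 (7.94 and 7.95 against 7.65 and 7.55, adjusted p = 0.268).

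The other genes of class 4 (*Sema4a*, *Sema4b*, *Sema4c*, *Sema4f* and *Sema4g*), *Sema5b*, and *Sema6a*, *Sema6b* and *Sema6c* differed by -0.25 to 0.21. *Sema4c*, a ligand of plexin-B2, was measured most evenly, at 9.32 and 9.34 dorsally against 9.47 and 9.49 ventrally. Its parts lay apart, with a difference of -0.15 (95% interval -0.49 to 0.20, adjusted p = 0.683 from limma). For every gene limma draws the spread towards that of all tested genes. The interval is therefore wider than the gaps of 0.019 and 0.017 between the replicates of *Sema4c* would give. *Sema6c* had a wide gap between its ventral arrays, at 8.69 and 9.29, and its dorsal values of 8.80 and 8.69 overlapped with these. Without ventral replicate 1, the spread comes from the dorsal arrays alone, 47.4% of all genes passed and their median was 0.18. *Sema4d* (0.39), *Sema5a* (0.68), *Sema5b* (0.27) and *Sema6d* (0.68) then passed with higher dorsal values and *Sema4f* (-0.51) and *Sema6c* (-0.54) with higher ventral values. Without ventral replicate 2 none of these passed, with *Sema4d* at 0.30, *Sema5a* at 0.22, *Sema5b* at 0.14, *Sema6d* at 0.24, *Sema4f* at 0.019 and *Sema6c* at 0.051. With the mean of its probe sets *Sema6d* was at 0.035 and *Sema4d* at -0.030.

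**Figure D2:**
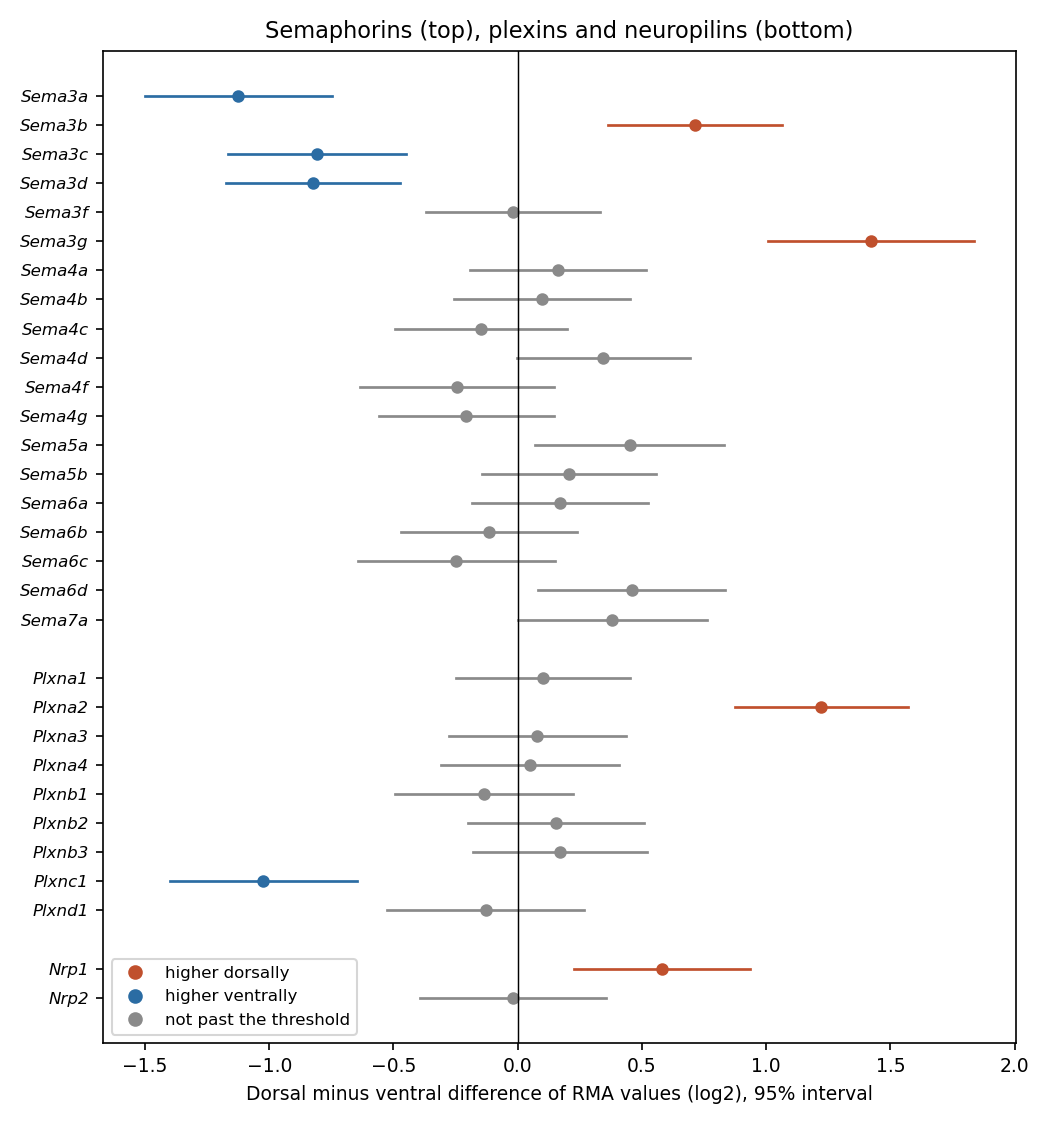
Difference between the parts (log2, dorsal minus ventral, horizontal axis) for the 30 tested members, with the 95% interval from limma as a line, semaphorins at the top, then plexins and neuropilins. The coloured genes passed the threshold, and among ligands they are all of class 3, from -1.12 for *Sema3a* to 1.42 for *Sema3g*.

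Among the receptors, *Plxna2*, which encodes a plexin used by class 3 and class 6 semaphorins and expressed in migrating cardiac neural crest, showed the clearest difference. Its values were 9.15 and 9.27 dorsally against 7.97 and 8.01 ventrally, so the parts lay far apart beside gaps of 0.12 and 0.040 between replicates. The difference was 1.22 (standard error 0.17, adjusted p = 1.64e-05 from limma), or 2.33-fold higher dorsally. Its other probe sets gave 1.36, 1.25 and 0.87, and *Plxna2* passed in all 15 alternatives, with differences from 1.11 to 1.28. The other plexin A genes did not pass. *Plxna1* differed by 0.10, *Plxna3* by 0.080 and *Plxna4* by 0.049, with intervals that lay within -0.31 and 0.45. The sequence before the start of *Plxna2* had a GC content of 62.8%, 18 CpG pairs and 2 GC boxes, and is given with the motifs in capitals as above.
Plxna2 (chr1:194619579-194619828, strand +): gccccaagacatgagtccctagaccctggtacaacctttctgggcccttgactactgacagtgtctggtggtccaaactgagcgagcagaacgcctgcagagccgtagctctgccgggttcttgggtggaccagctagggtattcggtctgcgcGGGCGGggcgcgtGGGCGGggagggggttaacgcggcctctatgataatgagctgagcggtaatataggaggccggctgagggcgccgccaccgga

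*Nrp1*, the neuropilin that binds *Sema3a* and also the vascular growth factor VEGF, had values of 10.39 and 10.41 dorsally against 9.70 and 9.94 ventrally. The difference was 0.58 (standard error 0.17, limma's adjusted p = 0.0337). Its other 3 probe sets gave larger differences, with 9.93 and 9.94 against 9.06 and 8.81 for the first and differences of 1.18 and 1.32 for the others. Each of these 3 passed when every probe set was tested as its own feature, and the probe set used here then did not (adjusted p = 0.0807 from limma). Its call also depended on the analysis: it was lost on leaving out dorsal replicate 1 (0.59) or 2 (0.57), without a filter, at an adjusted p under 0.01, or after quantile normalization once more (0.48), while the mean of its probe sets gave 1.02 and passed. Its adjusted p-values lay between 0.00142 and 0.634. *Nrp2*, the neuropilin of *Sema3b*, *Sema3f* and *Sema3g*, had values of 7.89 and 7.97 dorsally against 8.17 and 7.73 ventrally, which overlapped, and a difference of -0.019 (95% interval -0.39 to 0.36).

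*Plxnc1*, the receptor of *Sema7a*, was the receptor gene that passed with higher ventral values, at 7.31 and 7.48 dorsally against 8.63 and 8.21 ventrally. The difference was -1.02 (standard error 0.18, adjusted p = 0.000365 from limma), or 2.03-fold. A second probe set gave 6.30 and 6.35 dorsally against 7.47 and 7.46 ventrally, a difference of -1.14. The other 4 of its 6 probe sets lay below the filter, with differences from -0.55 to 0.063. With the mean of all 6 the difference was -0.54 and did not pass (limma's adjusted p = 0.0513, within 2.76e-07 to 0.0513 over the alternatives). The plexin B genes *Plxnb1* (-0.14), *Plxnb2* (0.15) and *Plxnb3* (0.17), receptors of class 4 and 5 semaphorins, did not pass with limma, and none of the 3 had an unadjusted p under 0.05 or passed with a trended or a robust variance. *Plxnd1*, a receptor of endothelial cells, had values of 8.64 and 8.54 dorsally against 9.01 and 8.43 ventrally. The ventral arrays enclosed the dorsal ones, and the difference was -0.13 (95% interval -0.52 to 0.27).

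**Figure D3:**
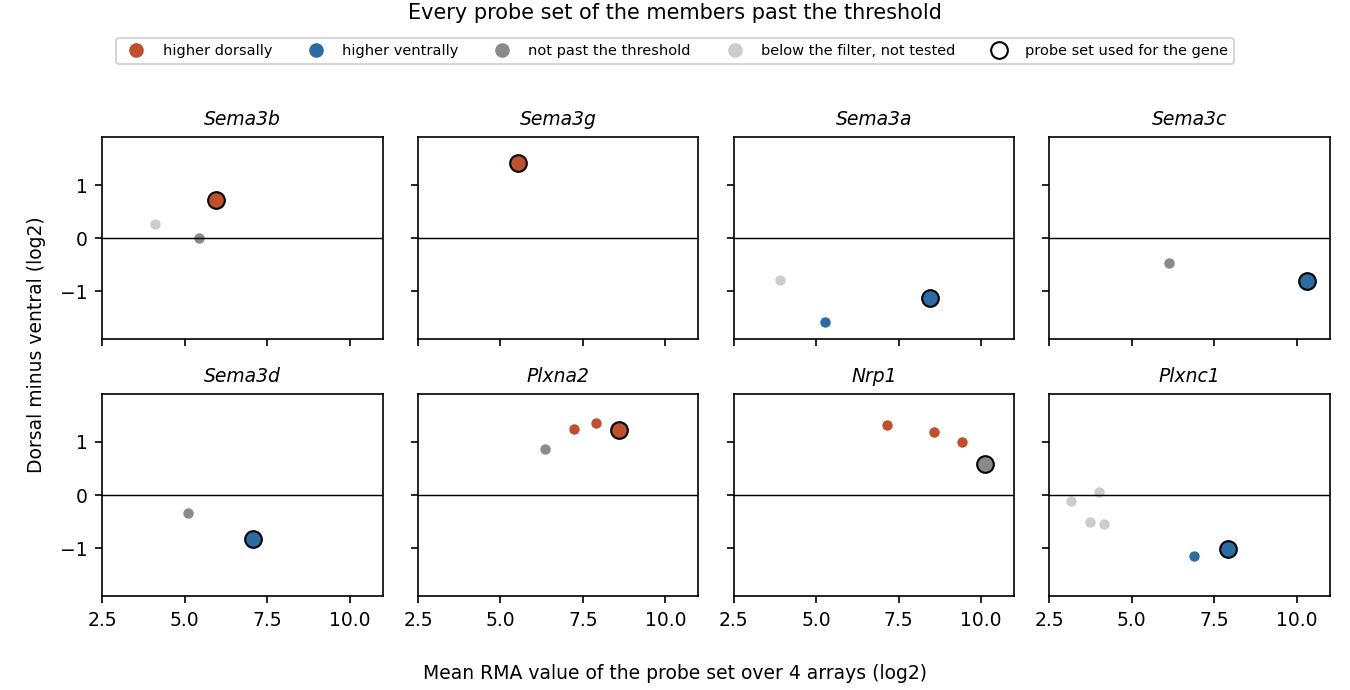
Dorsal minus ventral difference (log2, vertical axis) of every probe set of the 8 genes that passed, against its mean RMA value over 4 arrays (log2, horizontal axis), with the probe set used for the gene outlined and colours from the test of each probe set as its own feature. All probe sets of *Nrp1* and *Plxna2* lie above 0 and all of *Sema3a*, *Sema3c* and *Sema3d* below it. In contrast, 1 probe set of *Sema3b* lies at 0 and 1 of *Plxnc1*, below the filter, at 0.063.

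Of the 78 member probe sets, 57 were above the filter. Tested as features of their own, 8 were higher dorsally and 6 ventrally, beside 5.84% of all 23336 features (3.28% dorsally and 2.56% ventrally). For *Plxna2* and *Nrp1* 3 probe sets each passed, and for *Sema3a* and *Plxnc1* 2 each. Of those of *Sema3a*, 1 was tested through its ventral arrays alone, as given above. *Sema3b*, *Sema3c*, *Sema3d* and *Sema3g* had 1 each.

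Ligands were then set beside receptors for 20 pairs of known partners, of which 19 had both genes tested. Since genes recur among the pairs, the pairs are not independent and no test was made over them. The list holds no pair of a class 3 ligand with a plexin A. *Plxna2* is therefore set beside *Sema6a* alone, and the counts of pairs depend on this list. In 3 pairs both genes passed, each time on opposite sides, because *Sema3a*, *Sema3c* and *Sema3d* were higher ventrally and their neuropilin, *Nrp1*, dorsally. In 4 pairs only the ligand passed. Of these, *Sema3c* beside *Plxnd1* and *Nrp2*, and *Sema3b* and *Sema3g* beside *Nrp2*, had receptor differences between -0.13 and -0.019. In 2 pairs only the receptor passed, with *Plxna2* at 1.22 beside its ligand *Sema6a* at 0.17 and *Plxnc1* at -1.02 beside *Sema7a* at 0.38. Neither gene passed in the other 10.

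**Figure D4:**
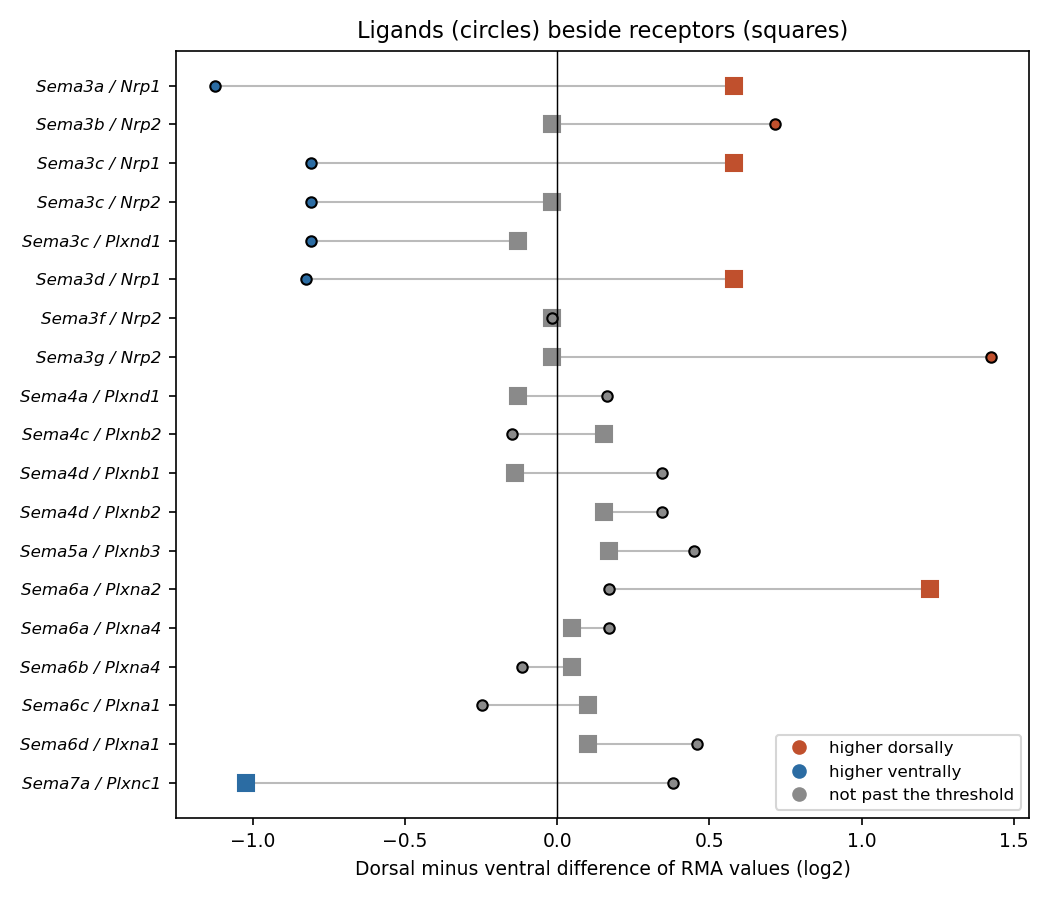
Dorsal minus ventral difference (log2, horizontal axis) of ligand genes (circles) and their receptor genes (squares) for the 19 pairs with both genes tested. The pairs of *Nrp1* span 0, with the ligands at -1.12 to -0.81 and the receptor at 0.58, and the genes of *Sema3f* and *Nrp2* coincide, at -0.018 and -0.019.

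Beyond the receptors, 47 tested genes of 51 that act with plexins and neuropilins were examined. Of these, 6 were higher dorsally and 2 ventrally (17%, beside 8.88% of all tested genes), with a median difference of 0.10. Of 9 co-receptors, *Chl1* and *L1cam*, adhesion molecules of axons that join neuropilins, were higher dorsally. *L1cam* had values of 7.27 and 7.44 dorsally against 5.37 and 5.64 ventrally (1.84, adjusted p = 6.56e-08 from limma). *Chl1*, counted among the 6, had 5.70 and 5.67 against 3.70 and 3.50, and both ventral values were under their array's 40th percentile. It was thus tested through its dorsal arrays alone, and in only 10 of the 15 alternatives. Its difference of 2.08 was 0.93 when the ventral values were raised to those percentiles. With the mean of all probe sets *L1cam* was at 0.94 and still passed.

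Of 5 genes of the CRMP family, cytoplasmic proteins that carry the semaphorin signal to microtubules, *Crmp1* (1.24) and *Dpysl4* (1.08) were higher dorsally and *Dpysl3* (-0.60) ventrally. *Crmp1* passed in all 15 alternatives. *Dpysl4* rests on a probe set whose suffix, _s_at, marks sequence shared between transcripts, and without such probe sets its difference was -0.012. With the mean of its probe sets *Dpysl4* was at 0.51 and did not pass. The call of *Dpysl3* was lost on leaving out dorsal replicate 1 (-0.57) or 2 (-0.64). That call was also lost without a filter, with every probe set as its own feature and at an adjusted p under 0.01. Of 12 plexin-bound regulators, *Rnd3*, a regulator of the actin cytoskeleton, was higher dorsally (1.20, adjusted p = 2.69e-05 from limma), with 8.89 and 9.13 against 7.82 and 7.79. *Farp2*, an exchange factor released from plexin A on ligand binding, was also higher there (0.72), a call lost on leaving out dorsal replicate 1 (0.67) or 2 (0.78), after quantile normalization once more (0.71) and with the mean of its probe sets (0.38), and its probe set also ends in _s_at. *Mical1*, an oxidoreductase that disassembles actin, was higher ventrally (-0.62), on a probe set that ends in _x_at. Its call was lost when any 1 array was left out (-0.79 to -0.44). It was also lost without a filter, after quantile normalization once more and with every probe set as its own feature. Nor did *Mical1* pass with the mean of its probe sets (-0.57) or without shared probe sets (-0.52). None of the 7 small GTPases and none of the 10 kinases and actin regulators passed with limma or with a trended or a robust variance, and 1 and 0 of them had an unadjusted p under 0.05. Their differences ran from -0.43 to 0.36.

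**Figure D5:**
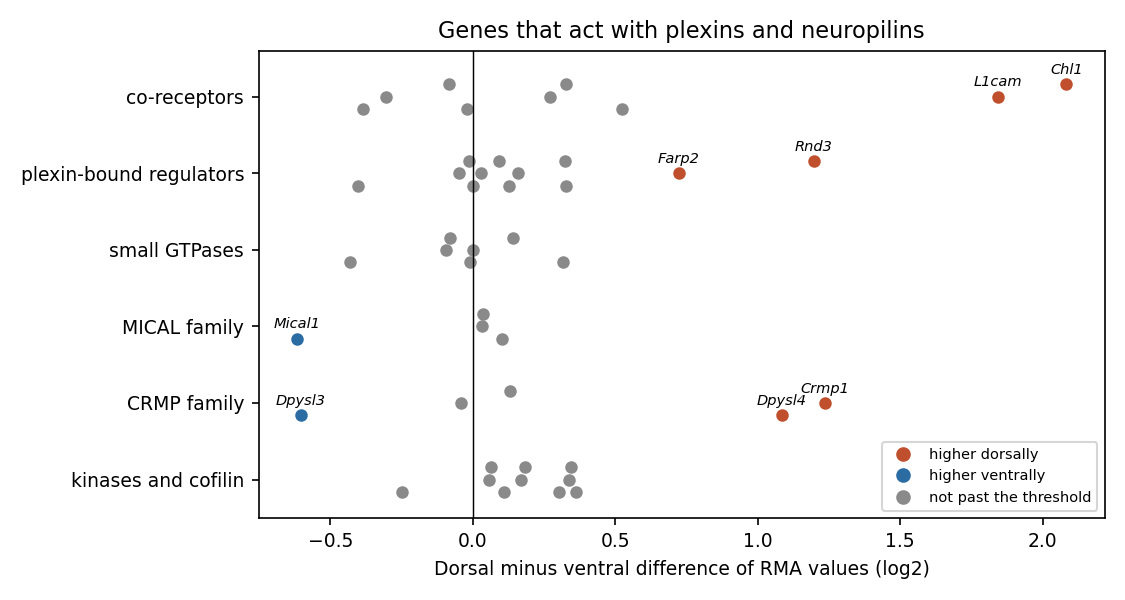
Dorsal minus ventral difference (log2, horizontal axis) of the 47 tested genes that act with plexins and neuropilins, by group, with 1 point per gene and points offset vertically only for legibility. The named genes passed, among them *L1cam* at 1.84 and *Chl1*, whose 2.08 is measured against ventral values below the 40th percentile and is 0.93 with these raised to it.

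Markers of other cell types moved between the parts as well. Beside *Sema3a*, *Sema3c*, *Sema3d* and *Plxnc1*, 12 of 13 tested heart muscle genes were higher ventrally, with a mean level over the 15 listed genes of 5.71 to 5.74 on the dorsal arrays and 8.65 to 8.84 on the ventral ones. *Tnnt2* differed by -5.34. *Myh6*, *Ryr2* and *Smpx*, counted among the 12, were among 5 of the 15 that lay below the 40th percentile on both dorsal arrays. They were thus tested through their ventral arrays alone. The difference of *Myh6*, -6.16, was -5.33 with the dorsal values raised to those percentiles. Foregut epithelial genes passed ventrally for 6 of 15 and dorsally for *Sox2*, with mean levels of 8.99 to 9.03 and 9.34 to 9.61, and *Shh* (-2.66) and *Grhl2* (-0.77) differed most. *Nkx2-1*, the defining factor of the respiratory epithelium, lay just above the 40th percentile, at 5.10 and 5.03 dorsally against 5.09 and 5.25 ventrally. These values overlapped, and its difference of -0.10 did not pass (adjusted p = 0.785 from limma). Beside *Plxna2*, *Nrp1*, *Sema3g* and *Sema3b*, 7 of 8 tested neural crest genes were higher dorsally and *Ednrb* ventrally, with mean levels of 8.13 to 8.24 and 6.28 to 6.29, and differences of 2.82 for *Tfap2b* and 4.79 for *Ret*. The latter was 4.62 with its value on ventral replicate 2, below the 40th percentile, raised to it. *Foxd3*, counted among the 7, lay below the 40th percentile on both ventral arrays and was tested through its dorsal arrays alone. Neuronal genes were higher dorsally for 7 of 10, with *Nefm* at 3.33 and *Isl1* at -1.66, and mean levels of 7.38 to 7.42 and 6.45 to 6.70. The same held for *Neurod1*, counted among these 7, as for *Foxd3*: it was tested through its dorsal arrays alone. Of 4 tested mesothelial genes 3 were higher dorsally, with mean levels of 7.44 to 7.56 against 5.59 to 5.88. *Wt1* lay below the 40th percentile on both ventral arrays and *Bnc1* on 1, and their differences of 2.96 and 3.60 were 2.20 and 3.58 with those values raised to the percentiles. The part of these cells in the semaphorin results was not tested.

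Of 15 endothelial genes 1, *Sox17*, passed (0.98), and the next largest differences were those of *Kdr* (-0.42, adjusted p = 0.167 from limma) and *Emcn* (0.42, adjusted p = 0.295). Their mean level was 7.85 to 7.92 dorsally and 7.64 to 7.93 ventrally. These ranges overlapped, and the part of vessel cells in the values of *Sema3g* and *Nrp1* was not tested. Of 5 tested somite genes 2 were higher dorsally (*Meox1* 2.01, *Meox2* 0.78), with mean levels of 5.68 to 5.96 and 5.28 to 5.47. For red blood cells 2 of 4 were (*Alas2* 1.19, *Hba-x* 1.04), with 10.87 to 10.92 and 10.23 to 10.43. In the foregut mesenchyme 4 of 11 genes were higher ventrally and 2 dorsally, led by *Wnt2* (-2.73) and *Msc* (2.62), with mean levels of 9.16 to 9.19 and 8.95 to 9.35.

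The arrays themselves differed in spread after RMA. With quantile normalization once more, the median difference over all tested genes was -0.016, beside 0.074 without it. The upper quartile was 7.75 on ventral replicate 2 and 8.02 on ventral replicate 1, and the median gap between replicates was 0.076 for the dorsal and 0.26 for the ventral part. Control RNAs with poly-A tails, measured by 27 probe sets, read higher on replicate 2 than on replicate 1 in both parts, by 1.94 and 1.63. The differences between replicates of the same number could only keep their sign in all 8 members, since the dorsal and ventral arrays of each lie apart. Apart from *Sema3g*, given above, these differences were, for numbers 1 and 2, -1.38 and -0.87 for *Sema3a*, -0.97 and -0.65 for *Sema3c*, -0.86 and -0.79 for *Sema3d*, and 0.63 and 0.80 for *Sema3b*. For the receptors they were 1.18 and 1.26 for *Plxna2*, 0.69 and 0.48 for *Nrp1*, and -1.32 and -0.73 for *Plxnc1*. With 2 arrays per part, the smallest two-sided p of an exact permutation test is 0.333.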

How the data were processed

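Total RNA (100 ng per array) from the dorsal and ventral parts of E9.75 tracheoesophageal anlagen was amplified, labelled and hybridised to Affymetrix mouse arrays by the authors, who summarised the scans by RMA, the only tool named in the submitters' processing notes. The deposited values run from 2.36 to 15.02 and are read as log2, and no source names the version of RMA. Precision is limited by having 4 arrays.

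Of the 45101 probe sets, 34958 had 1 gene symbol in GEO's platform annotation and were used, 932 had several and 9211 were unnamed here. All 31 member symbols were unchanged in RefSeq (GRCm38.p6). Genes, filter and test are as given in the report, fitted by limma (3.58.1, lmFit then eBayes, R 4.3.3) and tested on simulated data. The members and gene lists were chosen with earlier results of these data known. All members are accounted for, as are partner genes that passed and, per marker list, up to 2 genes with the largest differences. A few others were named after their values were seen. Alternatives changed the filter, normalization, probe sets, variance model, replicate block, threshold and arrays. Values within each replicate number were added after seeing the data.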

Additional observations from a re-analysis of the deposited data

How the results depend on the processing

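Of the 8 members that passed, *Sema3a*, *Plxna2* and *Sema3g* passed in every alternative in which they were tested, and no member that passed changed sign. The members' counts of 4 dorsal and 4 ventral genes were the same with the replicate number as a block, where partner genes counted 7 dorsal and 2 ventral and genes overall 790 and 678, against 629 and 538. The labels do not say what arrays of the same number share (correlation of same-numbered deviations 0.14 over genes, from 2 pairs).

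Without a filter 1 receptor gene was higher dorsally and 0 partner genes ventrally, and the same counts, 1 and 0, were found with every probe set as its own feature and with an adjusted p under 0.01. With the 60th percentile filter 0 ligands and 2 members were higher dorsally, since *Sema3b* and *Sema3g* were not tested. After quantile normalization once more 1 receptor gene was higher dorsally, and of all genes 479 were higher dorsally and 635 ventrally. With the mean of all probe sets 1 ligand was higher dorsally, 0 receptors and 2 members ventrally, and 3 partner genes dorsally and 1 ventrally. Without probe sets ending in _x_at, _s_at or _a_at 1 ligand was higher dorsally and 1 partner gene ventrally. With 1 array left out, ligands numbered 1 to 6 dorsally and 1 to 5 ventrally, receptors 1 to 2 dorsally and 1 ventrally, members 2 to 8 dorsally and 2 to 6 ventrally, and partner genes 4 to 17 dorsally and 0 to 4 ventrally. The lowest counts came without either dorsal array and the highest without ventral replicate 1, when 4.05%, 4.07% and 47.4% of all genes passed.

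Signs turned for members that had not passed, none of which then passed. After quantile normalization once more, *Plxna1* was at -0.0085, *Plxna3* at -0.028, *Plxna4* at -0.0088 and *Sema4b* at -0.0085. With the mean of all probe sets, *Nrp2* was at 0.031, *Plxna1* at -0.070, *Plxna3* at -0.091, *Sema3f* at 0.23 and *Sema4d* at -0.030. Without shared probe sets *Sema3f* was at 0.24, and the partner *Dpysl4*, which had passed, at -0.012. With 1 array left out, *Nrp2* ran from -0.23 to 0.20, *Plxna3* from -0.029 to 0.19, *Plxna4* from -0.065 to 0.16, *Plxnd1* from -0.42 to 0.16, *Sema3f* from -0.087 to 0.052, *Sema4f* from -0.51 to 0.019 and *Sema6c* from -0.54 to 0.051. *Sema4f* and *Sema6c* passed without ventral replicate 1, on their original side. The cause was not tested. With 2 arrays per part, differences near 0.5 are at the edge of what passes.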
